A study of Mus musculus with 8 samples.

Results

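Potassium channel genes were described in hippocampal CA1 of wild-type mice and of mice with a conditional knockout of Brpf1. The members are the 89 genes of the deposited table, out of 34094, whose symbol is Kcn followed by lower-case letters and a number. Kcne2 and Kcnj13, which the choroid plexus expresses at high levels, were left out by the rule. The members fall into 8 groups by symbol: 17 pore subunits of the Kcna to Kcnd families, 10 modifier subunits (Kcnf, Kcng, Kcns and Kcnv), 8 Kcnh, 5 Kcnq, 14 Kcnj, 13 Kcnk, 8 of the Kcnma, Kcnn, Kcnt and Kcnu families (most of them, but not Kcnu1, gated by calcium or sodium), and 14 auxiliary subunits (Kcnab, Kcne, Kcnip and Kcnmb).

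Potassium channels let potassium leave or enter a cell along its gradient, and so set the resting potential, end action potentials and limit firing. Voltage-gated channels are built of 4 pore subunits, to which cytoplasmic and membrane auxiliary subunits bind. Inward rectifiers and two-pore-domain channels set the resting conductance, and channels gated by calcium or sodium couple firing to the ions that enter during it. In CA1 pyramidal neurons, A-type currents of Kv4 channels restrain signals that spread back into dendrites, and M-currents of Kcnq channels restrain bursts.

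The study compared 4 libraries of wild-type (WT) mice with 4 libraries of mice with the conditional knockout (cKO), all C57BL/6 and 2 months old. The series title calls the loss of Brpf1 hippocampus-specific, and the genotype label of the cKO samples reads Brpf1 knockdown. The sample titles name hippocampus tissue, and the CA1 region is given in the protocols. The sources used here do not name the Cre driver, the deleted exons or the sex of the animals. A protocol mentions 3 pairs of mice, so the mouse behind each library is not known, and the p-values reflect library-to-library spread, part of which may be technical.

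Depth was 42346644 to 49897832 reads on genes per WT library and 40330226 to 46559795 per cKO library. Genes with a read numbered 26634 to 27549 in WT and 25476 to 26587 in cKO libraries, without overlap (exact permutation p = 0.0286), and its part in the results was not tested. All values are given in normalized reads (the reads of a gene over its library's size factor), as mean ± SD with n = 4 libraries per group. Brpf1, a chromatin reader that holds histone acetyltransferase complexes together, was lower in every cKO library than in any WT library (1415 ± 55.1 normalized reads in WT against 945 ± 87.3 in cKO; exact permutation p = 0.0286, the smallest that 4 against 4 can give). Its limma adjusted p was 0.132. All 8 markers of CA1 pyramidal neurons were read in these libraries, and their sum overlapped between groups (176325 to 206629.8 in WT and 177136 to 203906 in cKO). Camk2a (110210 ± 12427 in WT) and Slc17a7 (38024 ± 9627) made up most of the sum, so it says little about the other markers. Of the 8, 3 had positive and 5 negative log2 fold changes. At an unadjusted limma p under 0.05, 2 were higher in cKO (background 4.07% of all genes) and 0 lower (background 4.6%). These were Dkk3 (12517 ± 1471 in WT against 15283 ± 642 in cKO) and Fibcd1 (4378 ± 604 against 5506 ± 563), and 0 passed after adjustment. Markers of other hippocampal regions were read as well, so the libraries were not of CA1 neurons alone. In WT, Prox1 of dentate granule neurons had 4880 ± 402 normalized reads and Rgs14 of CA2 and CA3 had 3555 ± 541. The choroid plexus transcript Ttr ranged from 3253 to 149458 between WT libraries, and the left-out Kcne2 from 30.2 to 1436 in the same libraries.

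No potassium channel gene passed the test across all genes. Of the 83 members with at least 1 normalized read in at least 4 libraries, 0 passed limma at an adjusted p under 0.05, where 0.0191% of all 26135 genes tested passed, and 0 passed limma-voom on the recovered reads (0.0153% of all genes). At an unadjusted p under 0.05, 7 members were found by limma and 7 by limma-voom (background 8.82%). In limma that is 8.43% of members against 8.67% of all genes, so the share was near the background. The count was 4 without WT replicate 1, a setting whose share over all genes is not given here. Of the 7, 4 were higher in cKO (background 4.07%) and 3 were lower (background 4.6%). WT and cKO libraries did not overlap for 5 members, 2 higher in cKO (background 2.57%) and 3 lower (background 2.35%), together 6.02% against 4.92% of all genes.

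The authors' deposited table gives an FDR under 0.05 to 2 of the 89 members, Kcnj2 and Kcnh7, both lower in cKO, where it does so for 0.657% of all genes and for 0.305% in that direction. In limma 54 of 83 members had a positive log2 fold change (65.1%), against 47.3% of all genes, with a median of 0.069 against −0.018. Limited to genes whose log2 value averaged 8 or more, the shares were 69.6% of 56 members and 56.3% of 11842 genes. With 1 library left out, the members with a positive value went from 46 of 82 (without cKO replicate 4) to 60 of 83 (without cKO replicate 3). Without WT replicate 1 they were 47 of 82. These shares were not tested. The Kv4, Kvbeta and GIRK genes described below each had a positive log2 fold change in limma and in all 16 alternative settings. The filter settings and the replicate block leave the log2 fold change unchanged, so the sign could not differ there. The signs given for the Kcnh genes and for the Kcnma, Kcnn, Kcnt and Kcnu genes held with quantile normalization and with limma-voom, but not with every library left out.

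**Figure D1:**
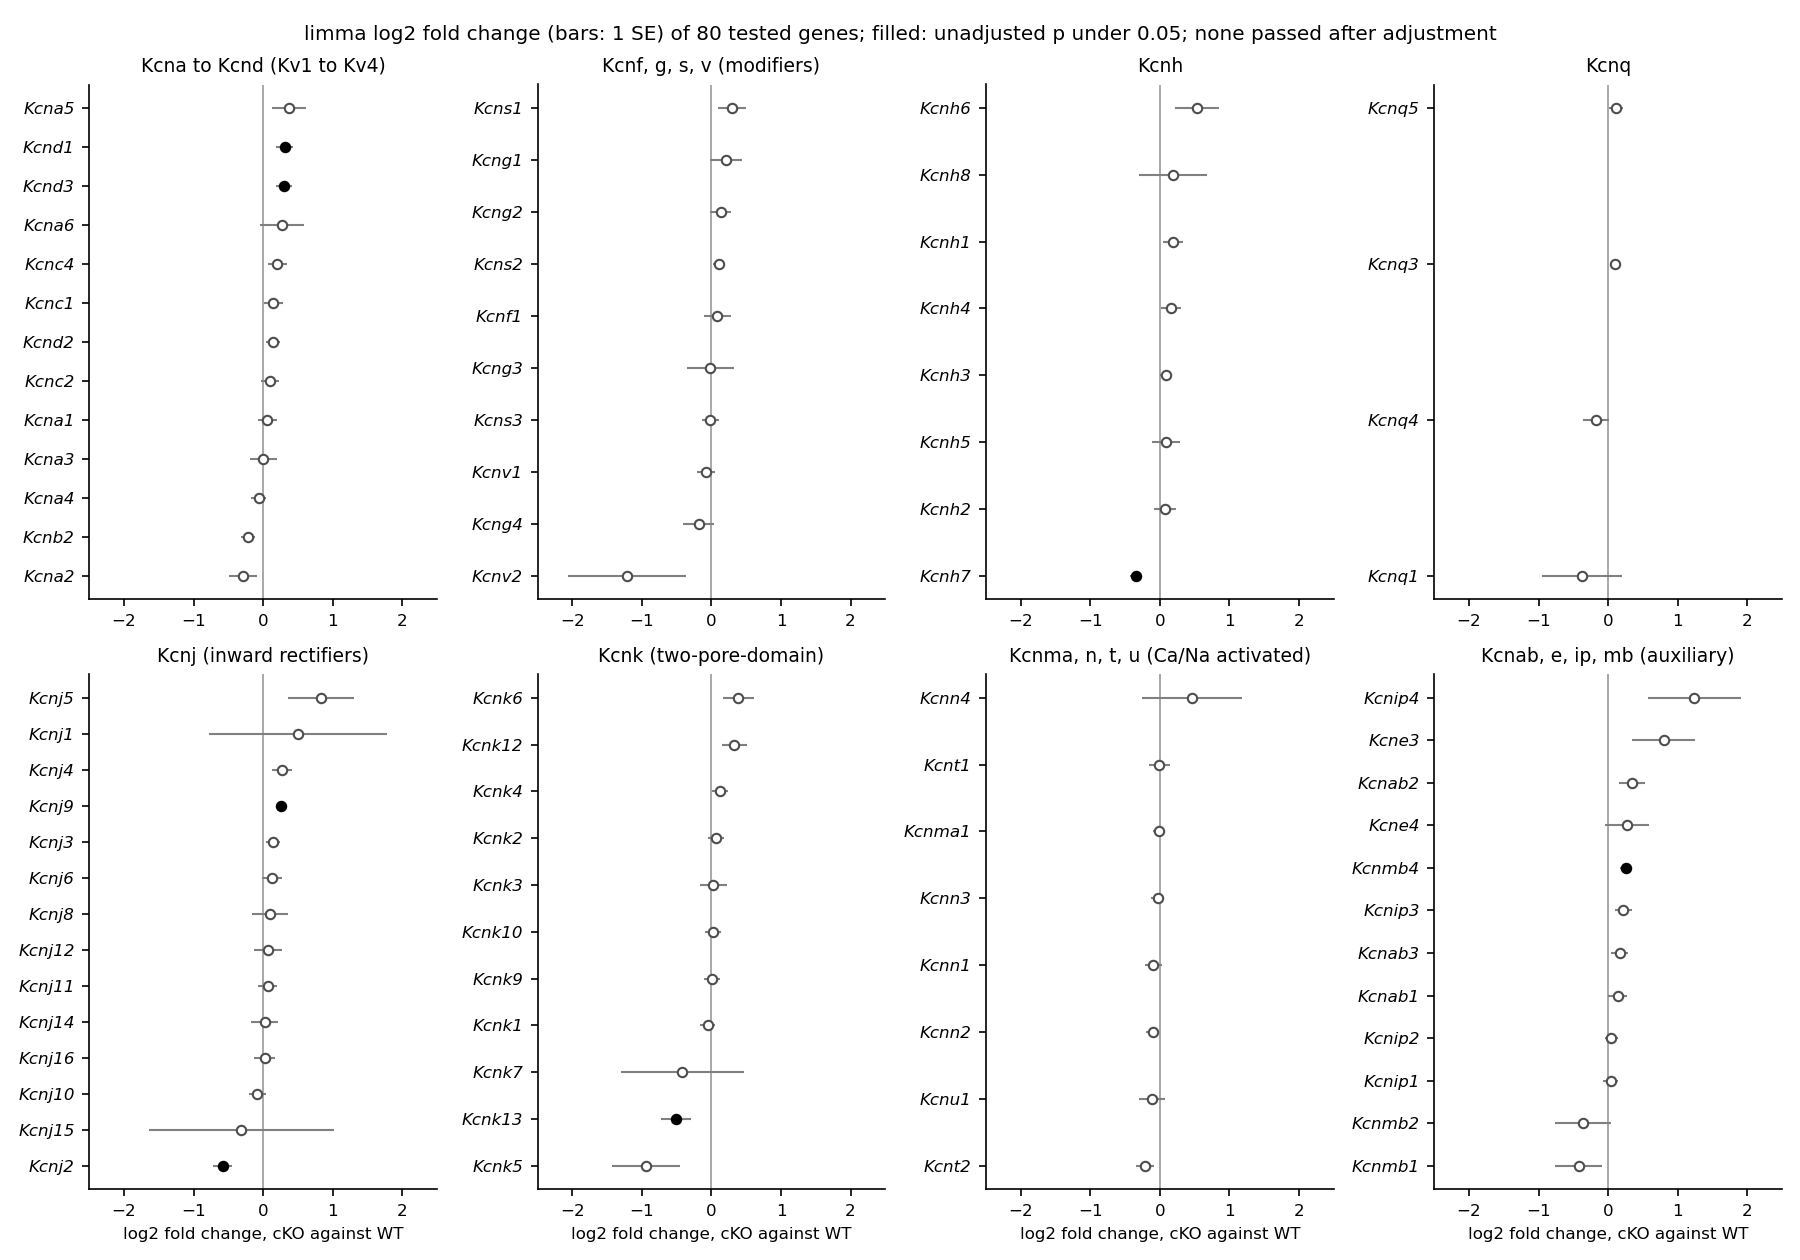
Log2 fold change in cKO against WT (x axis, log2 scale) for 80 of the 83 members tested, by family (panels), with bars of 1 SE from limma. Filled points mark the 7 members with an unadjusted p under 0.05, and no member passed after adjustment over all genes.

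For 45 of the 83 members the 95% confidence interval of the log2 fold change lay within 0.5 of 0, and for 69 within 1. Of the 38 members with an interval past 0.5, 26 had under 100 normalized reads per kb in WT, a measure defined in the next paragraph. Fold changes were taken after adding 1 to normalized reads, which matters for genes with a handful of reads: Kcnj15 had −0.31 so and 0.39 with 0.1 added. Kcnip4, described below, was abundant and still had a wide interval.

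To compare genes with each other, normalized reads were divided by the length of the merged exons of each gene. By this measure 52 of the 89 members had at least 100 normalized reads per kb in WT. The highest levels were those of the auxiliary subunit genes Kcnab2 (2681 ± 420.3 normalized reads per kb in WT) and Kcnip2 (1989 ± 203.1). Next came the two-pore-domain channel gene Kcnk1 (1675 ± 45.7) and the astrocyte inward rectifier gene Kcnj10 (1272 ± 173). The median coefficient of variation of these 52 genes was 10.7% in WT and 14.1% in cKO.

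**Figure D2:**
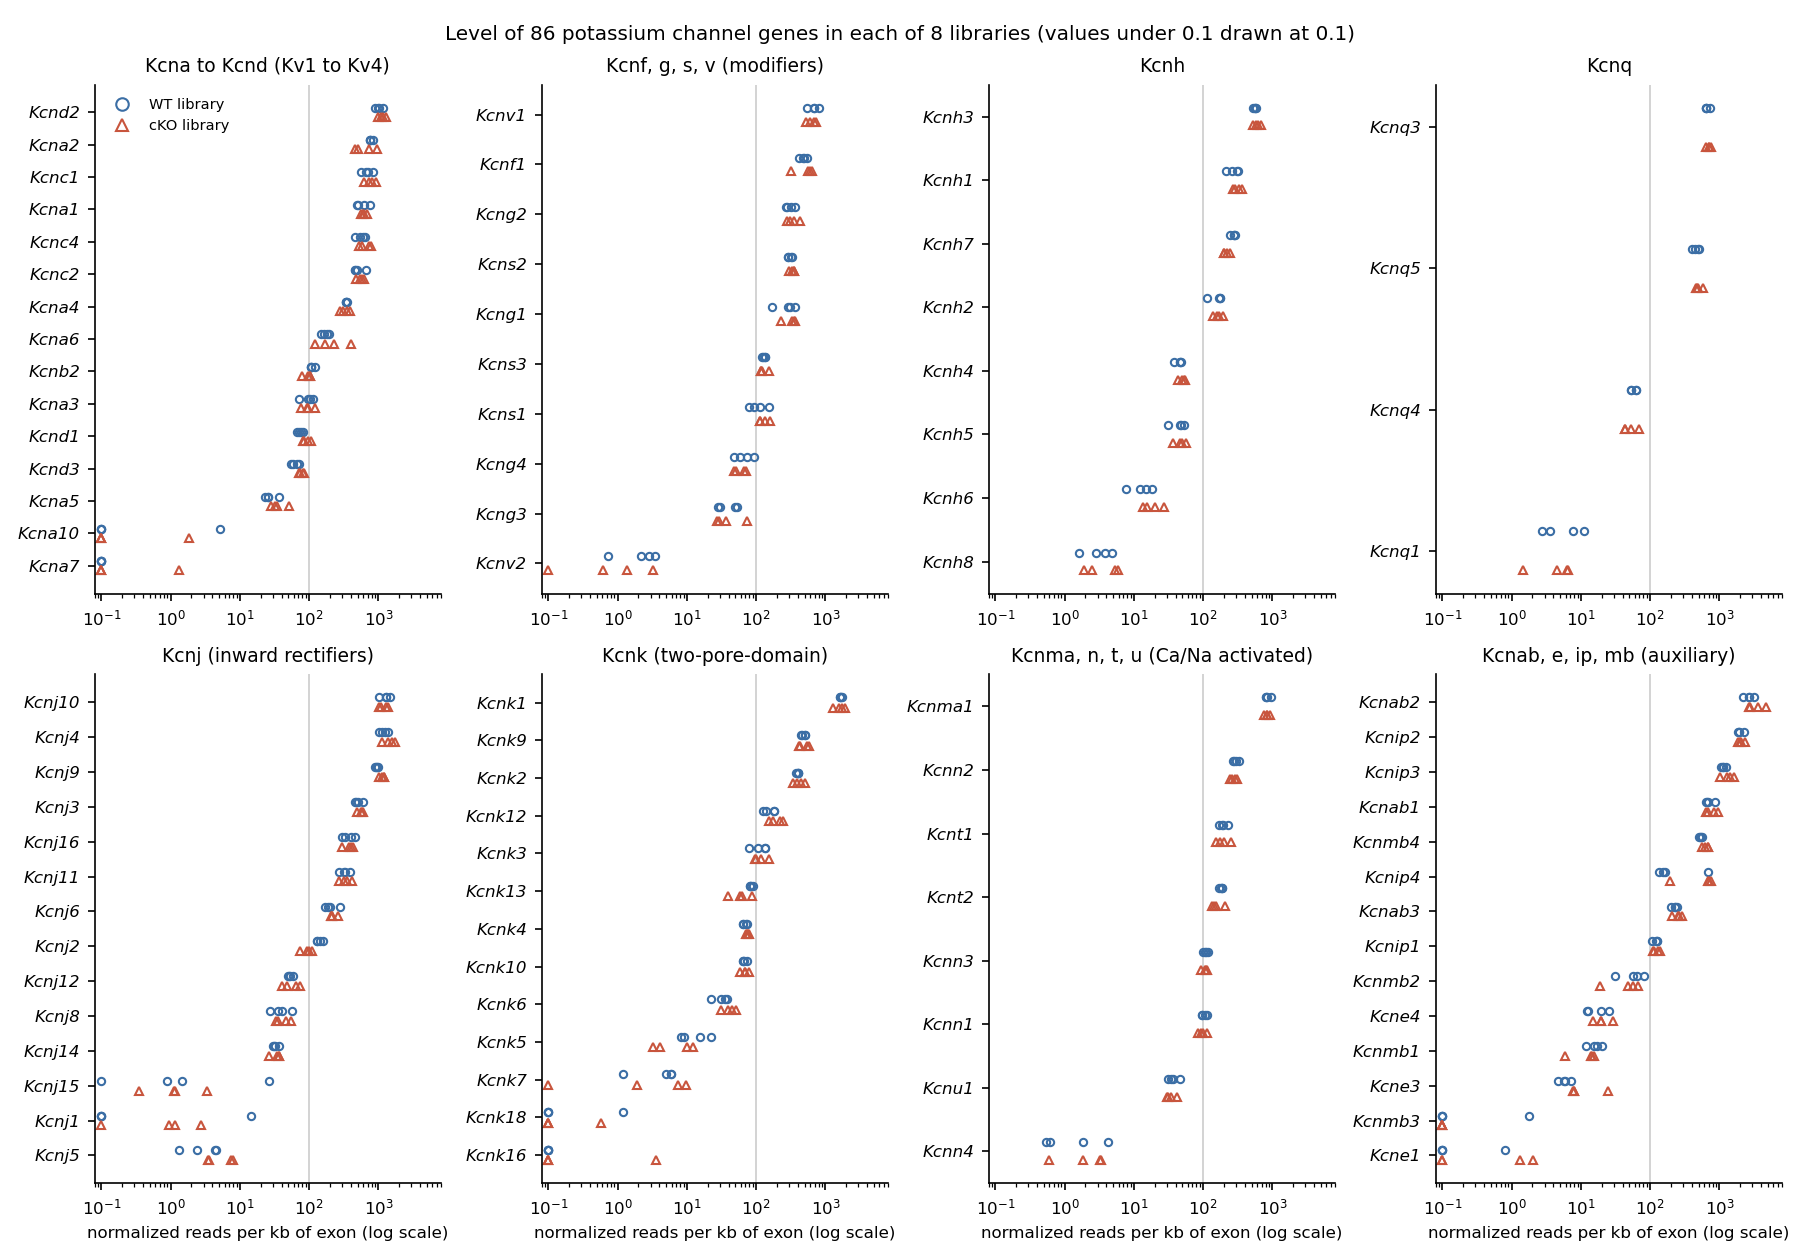
Normalized reads per kb of merged exon (x axis, log scale) for 86 of the 89 members in each WT library (circles) and each cKO library (triangles), by family. The vertical line marks 100 normalized reads per kb, which 52 members reached on average in WT, and Kcnab2 and Kcnip2 had the highest levels.

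At the other end, 6 members had too few reads to be tested: Kcna7, Kcna10, Kcne1, Kcnk16, Kcnk18 and Kcnmb3. None of them had more than 13 reads over the 4 libraries of a group. Kcna7 and Kcnk16 had 0 reads in WT and Kcnmb3 had 0 in cKO, a count that allows up to 3 reads over a group. These genes were not detectable, or barely so, at this depth.

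Among voltage-gated pore subunits, the Kv4 genes were all higher on average in cKO. Kv4 channels carry the A-type current, which opens below the firing threshold and inactivates within milliseconds. Kcnd2 made up 88.1% ± 1.17 of the Kv4 reads per kb in WT and 86.9% ± 1.36 in cKO. Kcnd3 had 528, 561, 637 and 692 normalized reads in the WT libraries and 776, 802, 704 and 691 in the cKO libraries. cKO replicate 4 was level with the highest WT library and the other 3 cKO libraries were above it (limma log2 fold change 0.30 ± 0.11 SE, adjusted p = 0.519).

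Kcnd1 had 376, 428, 406 and 358 in WT and 445, 515, 427 and 567 in cKO. Here 1 cKO library lay just below the highest WT library (limma log2 fold change 0.31 ± 0.13 SE, adjusted p = 0.539). Unadjusted limma p was 0.0218 for Kcnd3 and 0.0321 for Kcnd1, and it stayed under 0.05 in 11 and 10 of 16 settings. The abundant Kcnd2 had 5259 ± 548 normalized reads in WT against 5819 ± 636 in cKO, with a log2 fold change of 0.15 ± 0.10 SE. Its 95% interval ran from −0.075 to 0.37, which includes the value of Kcnd3.

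The KChIP genes, whose calcium-binding products escort Kv4 channels to the surface and slow their inactivation, also all had positive log2 fold changes. Kcnip2, the leading one, accounted for 56.6% ± 5.96 of KChIP reads per kb in WT and had 6913 ± 706 normalized reads in WT against 7132 ± 655 in cKO (log2 fold change 0.046 ± 0.092 SE, or −0.0066 with quantile normalization). Kcnip3, whose product is also known as the transcriptional repressor DREAM, had 4032 ± 265 normalized reads in WT against 4738 ± 869.7 in cKO (log2 fold change 0.22 ± 0.12 SE). Kcnip1 had 739 ± 48.7 normalized reads in WT against 761 ± 82.1 in cKO, and its log2 fold change of 0.039 ± 0.11 SE changed sign with a choroid plexus covariate and without WT replicate 2. Kcnip1 and Kcnip2 were both negative without cKO replicate 2.

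Kcnip4 had 2 levels that crossed the groups. It had 595, 563, 486 and 2444 normalized reads in WT replicates 1 to 4 and 2727, 696, 2571 and 2520.3 in cKO replicates 1 to 4. WT replicate 4 thus sat with 3 of the cKO libraries, and cKO replicate 2 sat with the other 3 WT libraries. In limma it had a log2 fold change of 1.24 ± 0.67 SE and a 95% interval of −0.35 to 2.82 (7.36% of its exon bases are shared with opposite-strand genes, and the strand setting of the counting is not known). Without WT replicate 4 it was 1.78, with an adjusted p of 0.732, and without cKO replicate 2 it was 1.71, with an adjusted p of 0.443. Kcnip4 was singled out after its values were seen, and the cause of the 2 levels was not tested.

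The Kv1 (Shaker-type) genes encode channels of axons and nerve terminals. Kcna2 and Kcna1 led them, with 38.7% ± 3.75 and 29.4% ± 4.39 of Kv1 reads per kb in WT. Kcna2 had 10001, 8979.8, 8884 and 9012 normalized reads in WT libraries versus 5998, 8599.5, 5542 and 11443 in cKO. The WT libraries lay close together, while the cKO libraries spread on both sides of them (limma log2 fold change −0.28 ± 0.20 SE, adjusted p = 0.702). The remaining Kv1 levels in WT, in normalized reads per kb, were Kcna4 343, Kcna3 96.4 and Kcna5 27.7. Kcna4 is known for a rapidly inactivating current, and Kcna3 also for its part in lymphocytes. Log2 fold changes were 0.059 ± 0.13 SE for Kcna1, −0.063 ± 0.11 SE for Kcna4 and 0.0034 ± 0.20 SE for Kcna3. Kcna6, a neighbour of Kcna1 on the chromosome, had 1023 ± 118 normalized reads in WT against 1358 ± 708 in cKO, and cKO replicate 1 alone had 2349.8. Its log2 fold change of 0.28 ± 0.31 SE became −0.033 without that library. Exons of an opposite-strand gene, Gm26673, overlap 39.6% of the Kcna6 exon bases, and that gene had at most 28.7 normalized reads in any library. As the strand setting of the counting is not known, the part of the shared bases in the Kcna6 reads was not tested.

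**Figure D3:**
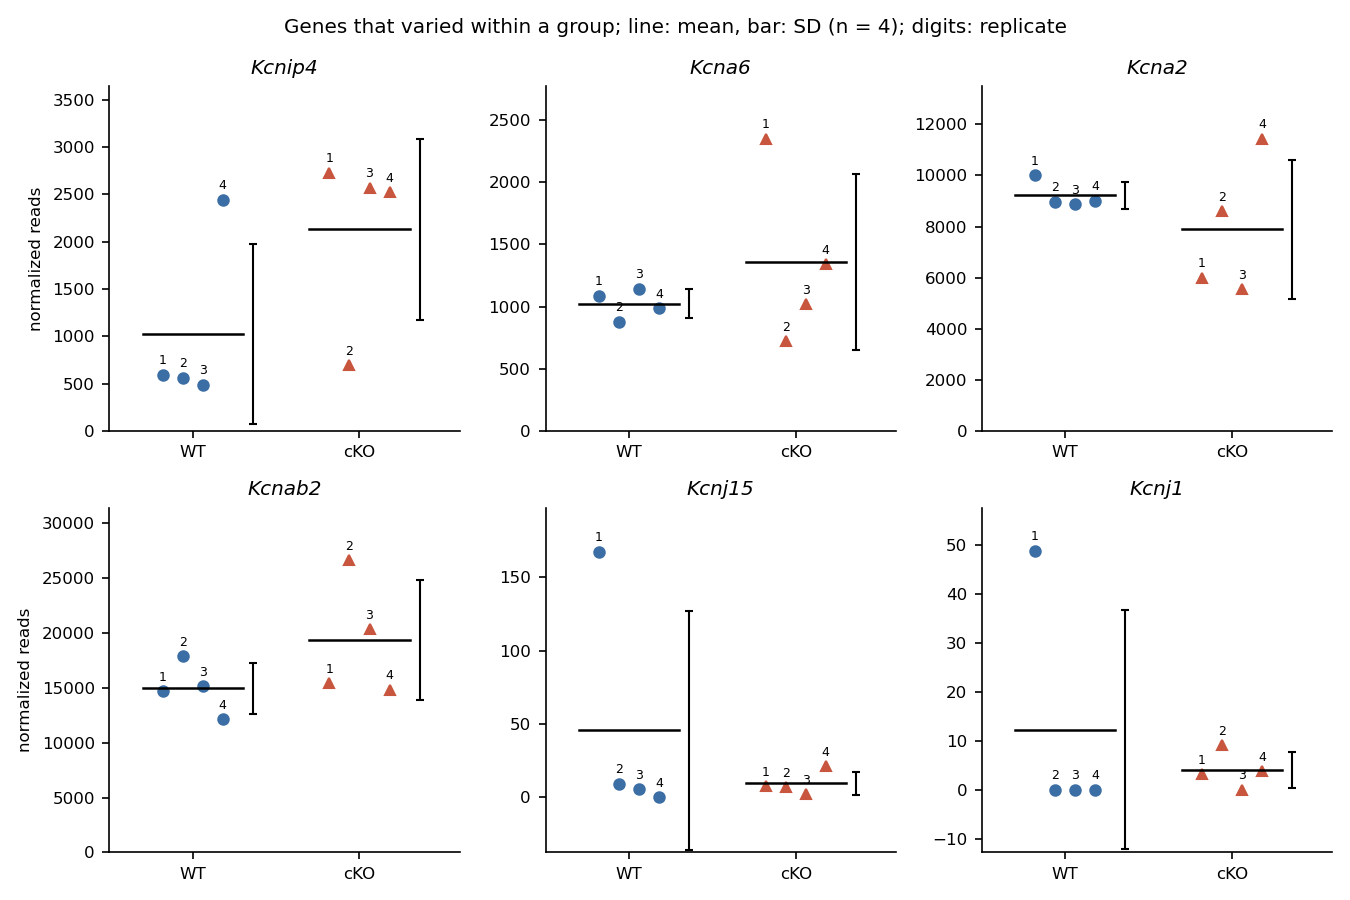
Normalized reads (y axis) of 6 genes that varied within a group, for WT (circles) and cKO (triangles) libraries numbered by replicate, with the mean as a line and the SD as a bar (n = 4). Kcnip4 had 2 levels that crossed the groups, and Kcnj15 and Kcnj1 were high in WT replicate 1.

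Kv2 and Kv3 channels serve the delayed rectifier current and fast spiking. Kcnb2, a Kv2 gene, was lower in every cKO library than in any WT library, with 1837, 1635, 1625 and 1598 normalized reads in WT libraries versus 1561, 1185, 1459 and 1569 in cKO. The gap between the groups was narrow, and Kcnb2 missed an unadjusted p under 0.05 (limma log2 fold change −0.22 ± 0.10 SE, adjusted p = 0.587, unadjusted p = 0.0581). Kv3 channels let parvalbumin interneurons fire rapidly, and of their genes Kcnc1 had 692 ± 109 normalized reads per kb in WT. Kcnc1 had 6548 ± 1027 normalized reads in WT against 7259.6 ± 1129 in cKO (log2 fold change 0.15 ± 0.13 SE). The Kv3 genes Kcnc2 and Kcnc4 had log2 fold changes of 0.10 ± 0.13 SE and 0.21 ± 0.14 SE. Over the Kcna to Kcnd genes, 11 of 15 tested had a positive value, with a median of 0.10. With 1 library left out the count went from 8 of 15 (without WT replicate 1) to 12 of 15 (without WT replicate 3 or cKO replicate 2). The 12 interneuron markers had a median log2 fold change of 0.10 (9 positive, 3 negative) and overlapping sums (35373 to 43648 in WT and 35986 to 48207 in cKO), and 0 of them passed limma after adjustment. At an unadjusted limma p under 0.05, 1 was higher in cKO (background 4.07%) and 0 lower (background 4.6%). That was Sst, with 5277 ± 246 normalized reads in WT against 6380 ± 514 in cKO. Pvalb had 1624 ± 191 in WT against 1623 ± 157 in cKO.

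Modifier subunits form no channel alone but join Kv2 subunits and change their gating. Kcnv1 led with 28.2% ± 5.53 of the reads per kb of this group in WT, followed by Kcnf1 with 20.1% ± 1.31. Kcnv1 had 3089.8 ± 463 normalized reads in WT against 2914 ± 399.7 in cKO and Kcnf1 had 2315 ± 254 normalized reads in WT against 2530.2 ± 679.9 in cKO. Their log2 fold changes were −0.082 ± 0.13 SE and 0.087 ± 0.20 SE, with 95% intervals of −0.36 to 0.20 and −0.35 to 0.52. In cKO replicate 2 Kcnf1 had 1537, below the 2654 to 3023 of the other cKO libraries, and without it the log2 fold change was 0.31 (limma adjusted p = 0.426). Kcng2 and Kcns2, next in level, had 309 ± 40.8 and 306 ± 21.3 normalized reads per kb in WT and log2 fold changes of 0.13 ± 0.15 SE and 0.11 ± 0.087 SE. Of the 10 modifier genes, 5 had positive and 5 negative log2 fold changes, and 0 had an unadjusted p under 0.05.

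In the Kcnh family, Kcnh7 was the 1 member with an unadjusted p under 0.05. Kcnh channels comprise the ether-a-go-go, Erg and Elk types, and Kcnh7 encodes an Erg channel that deactivates slowly and damps repeated firing. It had 4202, 4286, 4370.3 and 3672 normalized reads in the WT libraries. The cKO libraries had 3669.7, 3027, 3009 and 3375. The highest cKO library lay directly below the lowest WT library, so the groups did not overlap but nearly touched, and the cKO mean was 79.1% of the WT mean. The log2 fold change was −0.34 ± 0.090 SE, with an unadjusted limma p of 0.00326 and an adjusted p of 0.493. Unadjusted p stayed under 0.05 in 16 of 16 alternative settings, and adjusted p ranged from 0.254 to 0.779. The authors' deposited table gives it an FDR of 0.0393.

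As a share of all Kcnh reads per kb, Kcnh7 was 19.9% ± 1.93 in WT and 15.4% ± 2.20 in cKO. The other 7 Kcnh genes all had positive log2 fold changes, and none had an unadjusted p under 0.05. Leaving out 1 library turned some of them negative: Kcnh2 and Kcnh5 without WT replicate 1, Kcnh5 without cKO replicate 4, and Kcnh8 without WT replicate 3 or cKO replicate 1. The largest of them by level, the Elk gene Kcnh3, had 3203 ± 158 normalized reads in WT against 3421 ± 373 in cKO (log2 fold change 0.090 ± 0.089 SE). The other levels in WT, in normalized reads per kb, were Kcnh1 276, Kcnh2 158, Kcnh4 44.9, Kcnh5 44.7, Kcnh6 13.2 and Kcnh8 3.26. Kcnh2, the Erg gene best known from the heart, had a log2 fold change of 0.079 ± 0.16 SE, and Kcnh1, an ether-a-go-go gene, of 0.19 ± 0.14 SE. Exons of Kcnh7 overlap those of Gca on the opposite strand over 4.57% of the Kcnh7 exon bases. Gca itself had 889 ± 119.9 normalized reads in WT against 785 ± 131 in cKO (log2 fold change −0.19 ± 0.14 SE).

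Kcnq genes encode the subunits of the M-current, which acetylcholine closes. Kcnq3 supplied 44.9% ± 1.55 of the reads per kb of the family in WT and Kcnq5 31.4% ± 1.66. The shares in cKO were 45.6% ± 2.24 and 32.4% ± 2.41. Kcnq3 had 9647 ± 737 normalized reads in WT against 10319.9 ± 699 in cKO, with a log2 fold change of 0.10 ± 0.078 SE and a 95% interval of −0.074 to 0.27. For Kcnq5 the log2 fold change was 0.12 ± 0.10 SE. Kcnq1, a gene of heart and inner ear, had only 6.29 ± 3.92 normalized reads per kb in WT. Its log2 fold change was −0.38. Kcnq1 shares 2.96% of its exon bases with the long noncoding antisense gene Kcnq1ot1. Kcnq1ot1 had 2374 ± 87.5 normalized reads in WT against 1670 ± 386 in cKO (limma log2 fold change −0.53 ± 0.13 SE, adjusted p = 0.442). Its highest cKO library (2247) lay just below its lowest WT library (2277). The part of the shared bases in the Kcnq1 reads was not tested.

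Among inward rectifiers, Kcnj2 was the member with the lowest p of all 83. It encodes a strong inward rectifier that holds the resting potential of neurons, endothelium and muscle near the potassium equilibrium. Normalized reads were 864, 772, 707 and 697 in the WT libraries and 399, 593, 513 and 544 in the cKO libraries. Every cKO library was below every WT library, and the gap between the nearest of them exceeded the SD within either group. The cKO mean was 67.4% of the WT mean (760.2 ± 77.0 against 512 ± 82.4). The log2 fold change was −0.58 ± 0.14 SE, with an unadjusted limma p of 0.00152 and an adjusted p of 0.394, so it did not pass over all genes.

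Unadjusted p for Kcnj2 stayed under 0.05 in 16 of 16 alternative settings, with adjusted p from 0.270 to 0.737. The authors' deposited table gives an FDR of 0.00967. In such bulk samples fewer cells of a type and less RNA per cell cannot be told apart. Vessel marker sums overlapped between the groups. The sum over 7 endothelial markers was 9066 to 10084 in WT and 8292 to 9673 in cKO, with 2 positive and 5 negative log2 fold changes. At an unadjusted limma p under 0.05, 1 marker was higher in cKO (background 4.07%) and 1 lower (background 4.6%). The sum over 8 mural cell markers, mostly Rgs5 (5015 ± 725 in WT), was 7698 to 8823 in WT and 7142 to 8836 in cKO. Of these, 5 had positive and 3 negative log2 fold changes, with 0 markers at that p. The part of vessel cells in the Kcnj2 level was not tested. Kcnj16, the neighbouring gene on the chromosome and a subunit of astrocyte channels, had 1457 ± 277 normalized reads in WT against 1475 ± 236 in cKO.

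The other 3 genes of the Kcnj2 subfamily had log2 fold changes above 0, and none had an unadjusted p under 0.05. Kcnj14 turned negative without WT replicate 1, cKO replicate 1 or cKO replicate 3, and Kcnj12 without cKO replicate 4. Kcnj4, the most abundant of them, had 2212, 2402, 3000.0 and 2666 normalized reads in WT libraries versus 2387, 2997, 3405 and 3735 in cKO. The groups overlapped, with 2 cKO libraries above every WT library (limma log2 fold change 0.27 ± 0.14 SE, adjusted p = 0.603). Kcnj12 and Kcnj14 had log2 fold changes of 0.069 ± 0.20 SE and 0.026 ± 0.19 SE.

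G-protein-gated inward rectifiers (GIRK channels, Kcnj3, Kcnj5, Kcnj6 and Kcnj9) open when neurotransmitters such as GABA or adenosine act on their receptors. Kcnj9 was the most abundant of them, with 56.9% ± 2.56 of GIRK reads per kb in WT, and Kcnj3 followed with 30.6% ± 1.12. Kcnj9 had 3838, 4002, 4276 and 4089 normalized reads in the WT libraries. The cKO libraries had 4748, 4345, 5214 and 5127. All cKO libraries were above all WT libraries, and the closest pair differed by little (limma log2 fold change 0.26 ± 0.078 SE, adjusted p = 0.496, unadjusted p = 0.00708). Unadjusted p stayed under 0.05 in 16 of 16 settings, and the adjusted p ranged from 0.325 to 0.779.

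Kcnj5, with few reads, had 14.8 ± 7.32 normalized reads in WT against 26.4 ± 11.3 in cKO (log2 fold change 0.83 ± 0.48 SE, 95% interval −0.22 to 1.89). Kcnj3 had 2665 ± 329.9 normalized reads in WT against 2923 ± 255 in cKO (log2 fold change 0.14 ± 0.10 SE) with overlapping groups. Kcnj6 had 1299, 1432, 2099 and 1514 normalized reads in WT libraries versus 1635, 1568, 1628 and 2008 in cKO, also with overlap (log2 fold change 0.13 ± 0.14 SE). The Kcnj9 share of GIRK reads per kb was 58.9% ± 2.52 in cKO, and the shares overlapped (53.1 to 58.7% in WT and 55.9 to 61.1% in cKO). Exons of an opposite-strand gene overlap 31.1% of the Kcnj3 exon bases and 4.01% of those of Kcnj9. The opposite-strand gene at Kcnj9, Gm36937, had at most 90.4 normalized reads in a library.

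**Figure D4:**
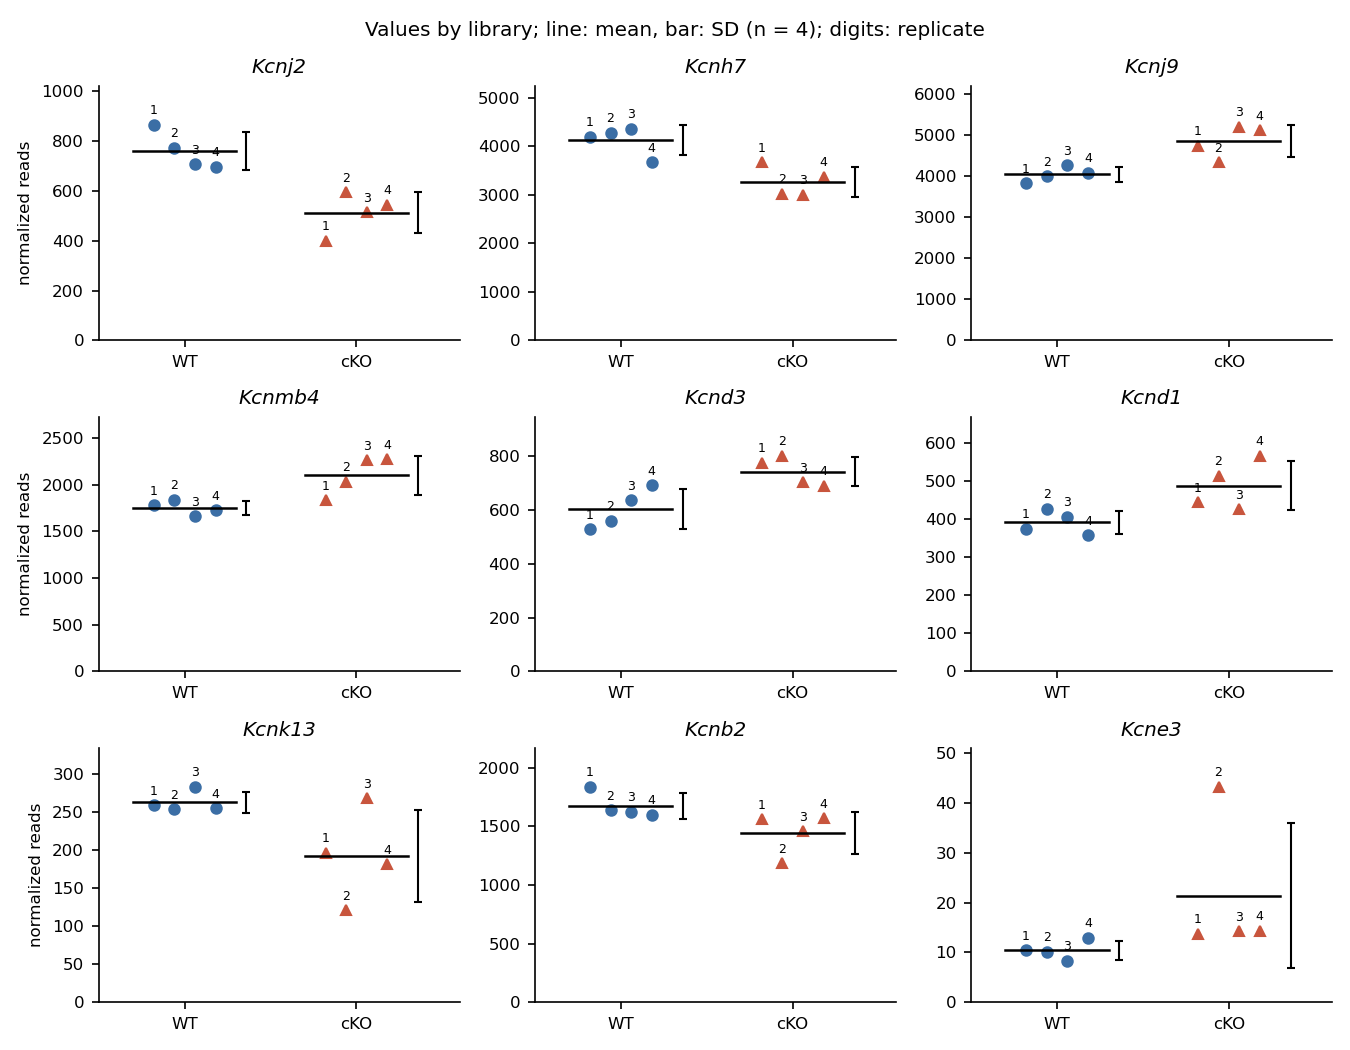
Normalized reads (y axis, from 0) of 9 members for WT (circles) and cKO (triangles) libraries, numbered by replicate, with the mean as a line and the SD as a bar (n = 4). Kcnj2, Kcnh7 and Kcnb2 were lower in all cKO libraries and Kcnj9 and Kcne3 higher, and the groups overlapped for the other 4 genes.

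Kcnj10, next to Kcnj9 on the chromosome, clears potassium from the extracellular space through astrocytes and oligodendrocytes. It had 7024, 5592, 7837 and 7056 normalized reads in WT libraries versus 5941, 5548, 6995 and 7473 in cKO, with overlap in all but cKO replicate 2, and a log2 fold change of −0.084 ± 0.12 SE. Astrocyte marker sums overlapped as well (174640.3 to 229266 in WT and 210457 to 222369 in cKO), and Slc1a2 (115246 ± 19500 in WT) was the largest part. Of the 10 astrocyte markers, 6 had positive and 4 negative log2 fold changes. At an unadjusted limma p under 0.05, 2 were higher in cKO (background 4.07%) and 0 lower (background 4.6%), and 0 passed after adjustment. All 12 oligodendrocyte markers had negative log2 fold changes, 3 of them at an unadjusted p under 0.05 (background 4.6%) and 0 after adjustment. Their sums overlapped (128558 to 189140.3 in WT and 105164 to 164663 in cKO). The part of either cell type in the Kcnj10 level was not tested.

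Kcnj11, the pore subunit gene of ATP-sensitive channels that couple metabolism to excitability, had 1195 ± 170.5 normalized reads in WT against 1256 ± 223 in cKO (log2 fold change 0.065 ± 0.14 SE). Kcnj8, its counterpart in pericytes and smooth muscle, had 102.3 ± 30.7 normalized reads in WT against 108 ± 24.7 in cKO (log2 fold change 0.10 ± 0.26 SE). Over the whole Kcnj family, 11 of 14 genes had a positive log2 fold change, with a median of 0.085. The count was 7 of 13 without cKO replicate 1 or without cKO replicate 4, and 11 of 14 without cKO replicate 3.

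Kcnj1 and Kcnj15, known from epithelia such as kidney, had reads mainly in 1 library. Kcnj15 had 167, 9.14, 5.58 and 0 normalized reads in WT replicates 1 to 4 and between 2.19 and 21.1 in cKO. Kcnj1 had 48.9 in WT replicate 1, 0 in the other WT libraries and at most 9.04 in cKO. Both were singled out after their values were seen, and the source of these reads in WT replicate 1 was not tested. The choroid plexus transcript Ttr was lower in that library than in any other, at 3253 normalized reads.

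Two-pore-domain (Kcnk) channels leak potassium at rest and respond to acid, lipids, stretch or anaesthetics. Kcnk1 made up 54.1% ± 0.632 of Kcnk reads per kb in WT, Kcnk9 15.6% ± 1.13 and Kcnk2 12.7% ± 0.254. Kcnk1 had 3744 ± 102.2 normalized reads in WT against 3634 ± 553 in cKO, Kcnk9 had 5949 ± 417 normalized reads in WT against 6043 ± 982 in cKO and Kcnk2 had 1948 ± 57.8 normalized reads in WT against 2066 ± 354 in cKO. Their 95% intervals for the log2 fold change were −0.29 to 0.18, −0.24 to 0.26 and −0.18 to 0.32. The acid-sensitive Kcnk3 had 454 ± 103.8 normalized reads in WT against 462 ± 103.4 in cKO, and the mechanically gated Kcnk4 had 306 ± 22.7 normalized reads in WT against 334 ± 17.3 in cKO. Their log2 fold changes were 0.029 ± 0.20 SE and 0.13 ± 0.12 SE. For Kcnk1, Kcnk9 and Kcnk2 the cKO libraries were more spread than the WT libraries.

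Kcnk13, whose channel sets the resting potential of microglia, was lower on average in cKO. It had 259, 254, 284 and 256 normalized reads in WT libraries versus 197, 121, 269 and 182 in cKO. cKO replicate 3 lay within the WT range, and the other 3 cKO libraries were below it (limma log2 fold change −0.50 ± 0.22 SE, adjusted p = 0.561, unadjusted p = 0.0400). Unadjusted p stayed under 0.05 in 6 of 16 settings, and without cKO replicate 2 the log2 fold change was −0.30. Of 8 microglia markers, 7 had positive log2 fold changes and 0 passed after adjustment, with sums of 12881 to 14245 in WT and 12649 to 16563 in cKO. The microglial receptor gene Csf1r had 2288 ± 212 normalized reads in WT against 2682 ± 319.5 in cKO. Kcnk5, an acid-sensitive channel gene with few reads here, had 46.5 ± 22.1 normalized reads in WT against 25.2 ± 15.2 in cKO (limma log2 fold change −0.95 ± 0.49 SE, adjusted p = 0.604).

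The Kcnma, Kcnn, Kcnt and Kcnu genes had small differences between groups. Kcnma1 encodes the large-conductance BK channel, Kcnn genes the SK channels that produce the afterhyperpolarization, and Kcnt genes sodium-activated channels. Kcnma1 had 16282, 13507, 14247 and 13523 normalized reads in WT libraries versus 15851, 12726, 14359 and 14093 in cKO. The groups overlapped, with cKO replicate 2 below every WT library and a 95% interval of −0.21 to 0.18 for the log2 fold change. Kcnn2, the main SK gene with 57.9% ± 1.37 of SK reads per kb in WT, had 2199.6 ± 172 normalized reads in WT against 2056 ± 200.4 in cKO (log2 fold change −0.10 ± 0.092 SE). Kcnn1 and Kcnn3, the other SK genes of brain, had log2 fold changes of −0.093 ± 0.12 SE and −0.027 ± 0.094 SE. The sodium-activated genes Kcnt1 and Kcnt2 had 194 ± 25.4 and 181 ± 7.74 normalized reads per kb in WT and log2 fold changes of −0.0098 ± 0.15 SE and −0.21 ± 0.13 SE. Of the 8 genes 7 had negative log2 fold changes, 0 had an unadjusted p under 0.05, and the median was −0.060. The number of negative values was 6 with array weights and 5 without WT replicate 3 or without cKO replicate 2.

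BK channels of neurons carry the Kcnmb4 subunit, which slows their gating and makes them resistant to some toxins. Kcnmb4 made up 87.6% ± 2.73 of Kcnmb reads per kb in WT and 91.2% ± 3.46 in cKO. It had 1780.0, 1838, 1660.4 and 1729.9 normalized reads in WT libraries versus 1832, 2029.9, 2262 and 2273 in cKO. 3 cKO libraries lay above every WT library, and cKO replicate 1 lay just under the highest of them (limma log2 fold change 0.26 ± 0.088 SE, adjusted p = 0.510, unadjusted p = 0.0147). Unadjusted p stayed under 0.05 in 16 of 16 settings, and adjusted p ranged from 0.272 to 0.786. Exons of the opposite-strand genes Kcnmb4os1 and Kcnmb4os2 overlap 31.5% of the Kcnmb4 exon bases. Kcnmb4os2 had 78.1 ± 25.7 normalized reads in WT against 98.1 ± 27.6 in cKO. The part of the shared bases in the Kcnmb4 reads was not tested. The smooth-muscle subunit gene Kcnmb1 had 67.8 ± 15.1 normalized reads in WT against 52.5 ± 18.5 in cKO (log2 fold change −0.43 ± 0.33 SE).

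Kvbeta subunits are cytoplasmic proteins that bind Kv1 channels and bring them to the axon. Kcnab2, the most abundant member per kb, had 14687, 17860.1, 15136 and 12136 normalized reads in WT libraries versus 15428, 26633, 20354 and 14841 in cKO. The groups overlapped, and cKO replicate 2 was the highest of the 8 libraries (limma log2 fold change 0.34 ± 0.19 SE, adjusted p = 0.621). Kcnab1 had 6078 ± 884 normalized reads in WT against 6726 ± 1221 in cKO and Kcnab3 had 641 ± 57.6 normalized reads in WT against 723 ± 97.9 in cKO, with log2 fold changes of 0.14 ± 0.14 SE and 0.17 ± 0.12 SE. Kcne3, a small membrane subunit gene, was higher in every cKO library than in any WT library, at very low levels: 10.4, 10.2, 8.37 and 13.0 normalized reads in WT libraries versus 13.8, 43.2, 14.2 and 14.4 in cKO. Without cKO replicate 2 its log2 fold change was 0.41 in place of 0.80 ± 0.45 SE, and it had no unadjusted p under 0.05 in any setting (limma adjusted p = 0.627).

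Summed per kb, the 14 auxiliary genes had 7294 to 8094 normalized reads per kb in WT libraries and 8491 to 10242 in cKO libraries. The sum is dominated by Kcnab2 (2681 ± 420.3 per kb in WT and 3463 ± 981 in cKO), and Kcnip4 (282 ± 262 and 587 ± 264) added to the difference. In each of the other groups the sums overlapped, for example at 6275 to 7474 and 6594 to 7963 for the Kcna to Kcnd pore subunits. No test was made of these sums, and no background was computed for them.

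Genes whose products join potassium channels, and which the rule does not take, were examined as a list of 30 genes. Of the 29 tested, 0 passed limma or limma-voom after adjustment. At an unadjusted p under 0.05, 2 were higher and 1 lower in limma (background 4.07% and 4.6%), with 3 in all by limma-voom (background 8.82%). Over the 16 alternative settings, unadjusted p stayed under 0.05 in 14 for Cntnap2, 9 for Dpp6 and 6 for Lrrc55. The median log2 fold change was 0.034, against −0.018 over all genes. Dpp6, an auxiliary subunit of Kv4 channels, had 10104 ± 1628 normalized reads in WT against 12096 ± 867 in cKO (limma log2 fold change 0.27 ± 0.11 SE, adjusted p = 0.529). Cntnap2, which clusters Kv1 channels beside the node of Ranvier, had 4529 ± 373 normalized reads in WT against 5424 ± 579 in cKO (limma log2 fold change 0.26 ± 0.092 SE, adjusted p = 0.514). Lrrc55, a gamma subunit gene of BK channels, had 875 ± 53.8 normalized reads in WT against 652 ± 228 in cKO (limma log2 fold change −0.50 ± 0.22 SE, adjusted p = 0.574).

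The groups did not overlap for 2 of the 29 partner genes, both higher in cKO (background 2.57%). Gnb1, the G-protein beta subunit gene whose product opens GIRK channels, had 11049 ± 582 normalized reads in WT against 12252 ± 837 in cKO (log2 fold change 0.15 ± 0.072 SE). Vapa, whose product tethers Kv2 channels to the endoplasmic reticulum, had 5553 ± 61.1 normalized reads in WT against 5918 ± 216 in cKO (log2 fold change 0.091 ± 0.061 SE). Hcn2, a hyperpolarization-activated channel gene, had 4016 ± 539 normalized reads in WT against 4338 ± 591 in cKO, with a log2 fold change of 0.11 ± 0.12 SE.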

How the data were processed

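RNA of hippocampal CA1 from 4 WT and 4 cKO libraries was made with a stranded mRNA kit, per the labels' protocols. The submitters' processing notes name STAR, StringTie, DESeq2 and build mm9, without the role of each tool, the annotation or the strand setting. The authors deposited log2 values, 1 column for each library. Undoing the log2 and the added 1 gave whole reads over a size factor for 100% of entries (within 0.001 reads), which also returned the depth of each library. The authors' deposited p-value, FDR and log2 fold change come from a test not stated in the sources used here, and the authors' 2 columns of means were left out.

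limma 3.58.1 in R 4.3.3 was run on these values (the authors' pseudocount of 1, a trended and robust variance, no covariate), over the 26135 genes with at least 1 normalized read in at least 4 libraries. Adjusted p is Benjamini-Hochberg over these genes, with a threshold of 0.05. Exact permutation tests were two-sided. The procedure was tested on simulated data. Exon lengths, overlaps and neighbours came from GENCODE release M21 (GRCm38, a later build than mm9), so no coordinates are printed. It matched all 89 members. No sequence was printed, as no result turned on one.

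Named genes were those with an unadjusted p under 0.05, an FDR under 0.05 in the authors' deposited table or no overlap between groups (at a mean of at least 10 normalized reads), plus the 2 with the most reads in each of the 8 groups, except genes that are not reported here singly and enter the counts and sums only. Other genes named with values were chosen after these were seen. The members and lists were chosen with earlier results of these data known. The settings varied 1 at a time were the scaling (quantile), the filter (none or 10), the pseudocount (0.1), weights per array, a block for the replicate number, a covariate for choroid plexus content, a threshold of 0.1, leaving out each library, and limma-voom with the deposited size factors, added after seeing the data. The planned count tests were not run, as the table holds log2 values. Figures were drawn with matplotlib 3.10.9.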

Additional observations from a re-analysis of the deposited data

Results flagged for a closer look

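In 86 groups of 4 libraries, for 43 genes, the highest and the lowest library were compared with the rest of the group, and 10 stood apart by more than the 95% critical value of Dixon's gap test. Chance flags about 1 in 20 groups, and some of the genes had been singled out for their uneven values. Kcnip4 had 2444 normalized reads in WT replicate 4, against 486 to 595 in the other WT libraries. In cKO replicate 2 it had 696, against 2520.3 to 2727.

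WT replicate 1 was the library that stood apart for 4 genes. It had 167 normalized reads of Kcnj15 (at most 9.14 in the other WT libraries) and 48.9 of Kcnj1 (0 in the others). It also had 10001 of Kcna2 (8884 to 9012 in the others) and 1837 of Kcnb2 (1598 to 1635).

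Kcne3 had 43.2 normalized reads in cKO replicate 2, against 13.8 to 14.4. Kcnj6 had 2008 in cKO replicate 4, against 1568 to 1635. Kcnq3 had 10751 in WT replicate 3, against 9256 to 9297, and Kcnip1 had 666 in WT replicate 2, against 752 to 769.8.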

How the results depend on the processing

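No potassium channel gene and no partner gene passed the adjusted threshold in any of the 16 alternative settings, nor at a threshold of 0.1, and the lowest adjusted p of a named gene was 0.254. The count of members at an unadjusted p under 0.05 ranged from 4 to 10 when 1 library was left out. Over all genes, 8 passed with array weights, 2 with the replicate block, and from 3 to 7 when 1 library was left out, against 5. The log2 fold change of Brpf1 stayed between −0.63 and −0.53, with adjusted p from 0.0619 to 0.484. The median over members stayed between 0.020 and 0.10, and members with no overlap numbered 7 with quantile normalization. Shares over all genes in these settings are not given here. The member counts at an unadjusted p or with no overlap were therefore not compared with a background.

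Signs changed for 12 of the 42 genes followed across settings, and the cause was not tested. None of the 12 had an unadjusted p under 0.05 in the limma fit described above. Kcnf1 had an unadjusted limma p of 0.0121 in 1 of the alternative settings. With quantile normalization the value was −0.0066 for Kcnip2, −0.0025 for Kcnj16 and −0.040 for Kcnk9. With array weights it was −0.023 for Kcnk9, 0.024 for Kcnma1 and 0.32 for Kcnj15. Kcnj15 had 0.39 with a pseudocount of 0.1 and 0.11 with limma-voom. With the choroid plexus covariate the value was −0.012 for Kcnip1, −0.45 for Kcnj1 and −0.022 for Kcnj16. Leaving out 1 library gave ranges of −0.033 to 0.53 for Kcna6, −0.015 to 0.31 for Kcnf1, −0.017 to 0.092 for Kcnip1, −0.013 to 0.11 for Kcnip2, −1.43 to 1.03 for Kcnj15, −0.070 to 0.14 for Kcnj16, −0.13 to 0.045 for Kcnk1, −0.023 to 0.17 for Kcnk2, −0.073 to 0.081 for Kcnk9, −0.066 to 0.047 for Kcnma1 and −0.18 to 0.0019 for Kcnv1.

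Whether the replicate numbers pair the mice is not known. Same-numbered WT and cKO libraries had correlations of deviations from −0.050 to 0.064, and the other pairs from −0.080 to 0.060. Values this near 0 cannot decide it, as paired mice may share little deviation. With the block, 9 members had an unadjusted p under 0.05 (the share over all genes is not given here) and 0 passed after adjustment. Not every library correlated best with its own number. The planned runs of edgeR, DESeq2 and TMM scaling were not made. Genes with few reads, such as Kcnj5 and Kcnv2, had SEs of 0.48 and 0.85, so changes short of several-fold were not detectable for them.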
